A study of Mus musculus with 6 samples.

Results

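The genes described here are 10 regulators of bone-forming cells and of mineral deposition: the Runt-related transcription factors Runx1, Runx2 and Runx3, the transcription factors Sp7 (osterix) and Dlx5, the matrix and enzyme genes Alpl, Spp1, Ibsp and Smpd3, and the phosphate regulator Phex. Every probe set annotated to exactly 1 of them was taken, which gave 18 probe sets of 8 genes, among 45101 probe sets on the array and 18193 genes with a probe set of their own. No probe set is named to Runx2 or Spp1 in the annotation used here, so these 2 were not analysed here. The 6 arrays compared 2 kinds of stromal stem cell that were cultured from adult mouse marrow, 3 of them carrying RNA of neural crest stem cells (NCSC) and 3 of mesenchymal stem cells (MSC). Both kinds came from female mice of 10 weeks, of the mixed background C57BL/6 x SV129 and the genotype wnt1/CRE-R26R-lacZ, and received no treatment. In such mice Cre is driven by Wnt1 sequences and switches on a lacZ reporter, which marks descendants of the neural crest. Cells were cultured for at least 5 passages in Mesencult medium and then selected as clones. The labels speak of biological replicates without naming separate mice or clones, so the p-values rest on a spread that may be technical, and effects of the clone and of the cell type cannot be told apart if each type was a single clone.

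Bone-forming cells arise from mesenchymal progenitors, and in the head also from the neural crest. Runx2 commits them to the lineage, Sp7 acts after it, and Dlx5 stimulates both. The committed cell secretes a collagen matrix with acidic phosphoproteins such as Ibsp (bone sialoprotein) and Spp1 (osteopontin). Alpl, the tissue-nonspecific alkaline phosphatase, removes the mineralization inhibitor pyrophosphate, Smpd3 is a neutral sphingomyelinase whose loss impairs mineralization in mice, and Phex is an endopeptidase whose loss causes phosphate wasting and soft bone.

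Each value is a GCRMA probe set intensity taken to log2, and a value at or under 4 counts as undetected. Each array had 45.2% to 45.5% of its probe sets above that limit, and the lowest value of the table was 2.12 on every array. All 8 crest stem cell markers with a probe set, among them Sox10, were higher in NCSC, whereas the stromal markers were split. Of 9 with a probe set, Eng, Nt5e, Pdgfrb and Cd44 were higher and Vcam1, Pdgfra and Cxcl12 lower in NCSC, and Thy1 and Lepr were undetected on all 6 arrays. MSC 2 and NCSC 3 stood apart from the other replicates of their kind: MSC 2 had 3.34% to 3.37% of the tested probe sets more than 2-fold from the other MSC arrays, and NCSC 3 had 4.86% to 4.98% more than 2-fold from the other NCSC arrays, against 0.486% to 0.519% for the remaining pairs. The arrays also went against the female label. The Y-linked gene Eif2s3y was at 10.42, 10.39 and 10.82 on the NCSC arrays and at 10.87, 11.29 and 10.96 on the MSC arrays, while no Xist probe set exceeded 2.13 on any array. Y-linked Uty was also above the limit on all 6 arrays, but Y-linked Kdm5d was at 8.66, 8.58 and 9.24 on the NCSC arrays and undetected on the MSC arrays, at 2.16, 2.16 and 2.12.

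Of the 4 genes that could be tested, Runx1 was higher in NCSC, and Runx3, Phex and Smpd3 were lower. Sp7, Alpl and Ibsp were undetected on all arrays of both cell types, and Runx2 and Spp1 had no probe set. Dlx5 passed the limit on 1 array only. Testing required values above the limit on 3 or more of the 6 arrays, which 8 of the 18 probe sets, in 4 genes, reached. In limma's test, with p-values adjusted over all 21004 tested probe sets by the Benjamini-Hochberg method, 5 of these 8 were called higher and 3 lower in NCSC at an adjusted p under 0.05. Among all tested probe sets 58.9% were called, 32% higher and 26.9% lower. The values of the groups did not overlap in any of the 8, as in 67.5% of all tested probe sets. Against that background, and because the Phex and Smpd3 probe sets were tested only through their MSC values, the count of called probe sets is a description only.

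**Figure D1:**
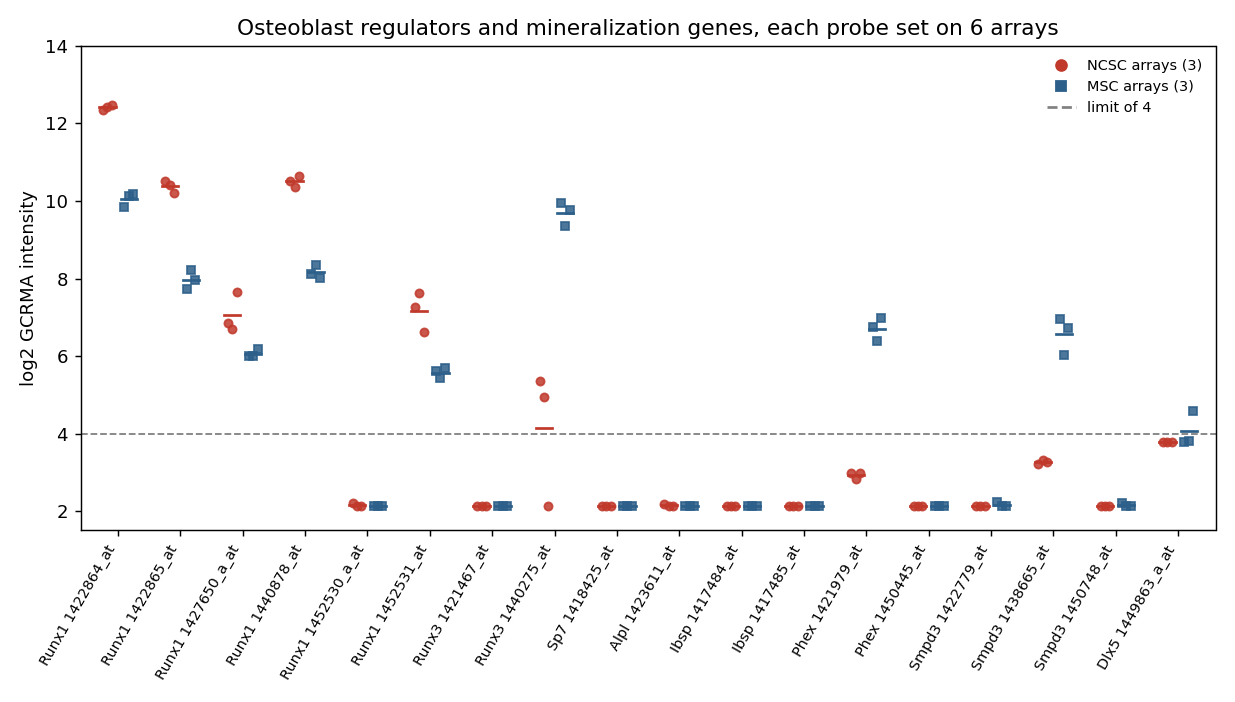
Each probe set of the 8 measured genes on 6 arrays, as log2 GCRMA intensity. Red circles are the 3 NCSC arrays and blue squares the 3 MSC arrays, each with its mean as a bar, and the dashed line is the limit of 4. The Runx1 probe sets above the line are higher in NCSC, 1 probe set each of Runx3, Phex and Smpd3 is higher in MSC, and Sp7, Alpl and Ibsp lie at the bottom in both.

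Runx1, best known as a master regulator of blood stem cell formation and also active in skeletal progenitors and sensory neurons, was higher in NCSC in each of its 5 detected probe sets. The brightest, 1422864_at, had log2 intensities of 12.35, 12.43 and 12.49 on the NCSC arrays, against 9.84, 10.13 and 10.19 on the MSC arrays. The groups did not overlap, and the lowest NCSC array lay 2.16 above the highest MSC array. The difference was 2.37 ± 0.12 (SE, n = 3 each; limma adjusted p = 2.24e-05), which is 5.16-fold with a 95% confidence interval of 4.24 to 6.29. A difference of this size or larger in either direction was found for 9.19% of the tested probe sets.

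The other bright Runx1 probe sets gave nearly the same value. Probe set 1440878_at had 10.51, 10.36 and 10.64 on the NCSC arrays and 8.12, 8.34 and 8.02 on the MSC arrays, a difference of 2.34 ± 0.12 (limma adjusted p = 3.01e-05). Probe set 1422865_at had 10.52, 10.40 and 10.21 on the NCSC arrays and 7.73, 8.21 and 7.97 on the MSC arrays, a difference of 2.41 ± 0.15 (limma adjusted p = 6.26e-05). In both, as in the brightest, every NCSC array exceeded every MSC array, with gaps of 2.02 and 2.00 between the nearest arrays.

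The 2 dimmer Runx1 probe sets differed by less. Probe set 1452531_at had 7.27, 7.63 and 6.62 on the NCSC arrays, against 5.61, 5.42 and 5.69 on the MSC arrays, a difference of 1.60 ± 0.26 (limma adjusted p = 0.00273). Probe set 1427650_a_at had 6.84, 6.71 and 7.65 on the NCSC arrays, against 5.99, 6.00 and 6.17 on the MSC arrays, a difference of 1.01 ± 0.25 (limma adjusted p = 0.0157). NCSC 3 was the lowest NCSC array in 1452531_at and the highest in 1427650_a_at, so these sets did not rank the NCSC arrays alike. Without NCSC 3 the difference of 1427650_a_at was 0.72, and without MSC 1 it was not called (adjusted p = 0.053, within a range of 0.00262 to 0.0854 over the alternatives). The remaining Runx1 probe set, 1452530_a_at, was undetected on all arrays, at 2.13 to 2.20.

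Runx3, a factor of sensory neuron, lymphocyte and cartilage development, went the other way. Its detected probe set, 1440275_at, had 5.36, 4.94 and 2.14 on the NCSC arrays, against 9.96, 9.36 and 9.77 on the MSC arrays. The groups did not overlap, and NCSC 3 alone was undetected. The difference was -5.55 ± 0.84 (SE, n = 3 each; limma adjusted p = 0.00212), with a 95% confidence interval of -7.61 to -3.49. With values under the limit set to it, Runx3 was 30.5-fold lower in NCSC. That fold bounds only the undetected NCSC 3 value, not the spread of the arrays. Without NCSC 3 the difference was -4.55 (adjusted p = 0.00012, within a range of 0.000108 to 0.0227 over the alternatives), so that array enlarged the difference and was not needed for the call. The other Runx3 probe set, 1421467_at, stood at 2.12 on all 6 arrays.

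Runx genes are read from a distal and a proximal promoter, and Runx proteins bind the motif TGTGGT. The 250 bases before each listed start of Runx1 and Runx3 are shown because these family members differed in opposite directions. They come from RefSeq on GRCm38.p6, run 5′ to 3′ on the gene's strand, and carry in capitals each TGTGGT or its reverse complement ACCACA.
Runx1 distal, chr16:92826075-92826324, minus strand: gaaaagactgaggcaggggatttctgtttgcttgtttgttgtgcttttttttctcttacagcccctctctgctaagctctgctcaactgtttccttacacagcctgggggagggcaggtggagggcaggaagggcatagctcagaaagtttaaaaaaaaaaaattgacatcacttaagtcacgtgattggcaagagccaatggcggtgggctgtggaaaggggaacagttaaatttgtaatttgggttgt
Runx1 proximal, chr16:92697330-92697579, minus strand: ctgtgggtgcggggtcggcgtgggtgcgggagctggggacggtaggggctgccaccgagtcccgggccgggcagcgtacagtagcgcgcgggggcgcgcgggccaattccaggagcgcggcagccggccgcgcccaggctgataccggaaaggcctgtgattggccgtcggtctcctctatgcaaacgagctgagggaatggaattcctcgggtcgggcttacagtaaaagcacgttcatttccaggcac
Runx3 distal, chr4:135120395-135120644, plus strand: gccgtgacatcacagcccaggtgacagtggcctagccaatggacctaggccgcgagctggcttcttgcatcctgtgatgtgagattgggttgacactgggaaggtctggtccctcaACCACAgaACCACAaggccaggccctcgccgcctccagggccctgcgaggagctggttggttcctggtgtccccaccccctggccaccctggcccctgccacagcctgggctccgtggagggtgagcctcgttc
Runx3 proximal, chr4:135152295-135152544, plus strand: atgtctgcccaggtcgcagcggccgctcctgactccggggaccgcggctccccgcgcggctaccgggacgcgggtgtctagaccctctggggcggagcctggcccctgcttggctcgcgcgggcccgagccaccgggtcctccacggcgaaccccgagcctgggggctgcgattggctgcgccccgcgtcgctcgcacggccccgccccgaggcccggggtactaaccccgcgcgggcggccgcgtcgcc
The distal Runx3 window held the motif in 2 copies, starting 134 and 126 bases before the start, and the other 3 windows held none. RefSeq starts were listed for 7 of the 10 genes, with 11 windows in all, of which 3 held the motif: that of Runx2 and 1 each of Runx3 and Spp1. Among all 32851 listed windows of this length 14% held it. The motif is a match of letters, and a window without it says nothing of binding elsewhere.

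**Figure D2:**
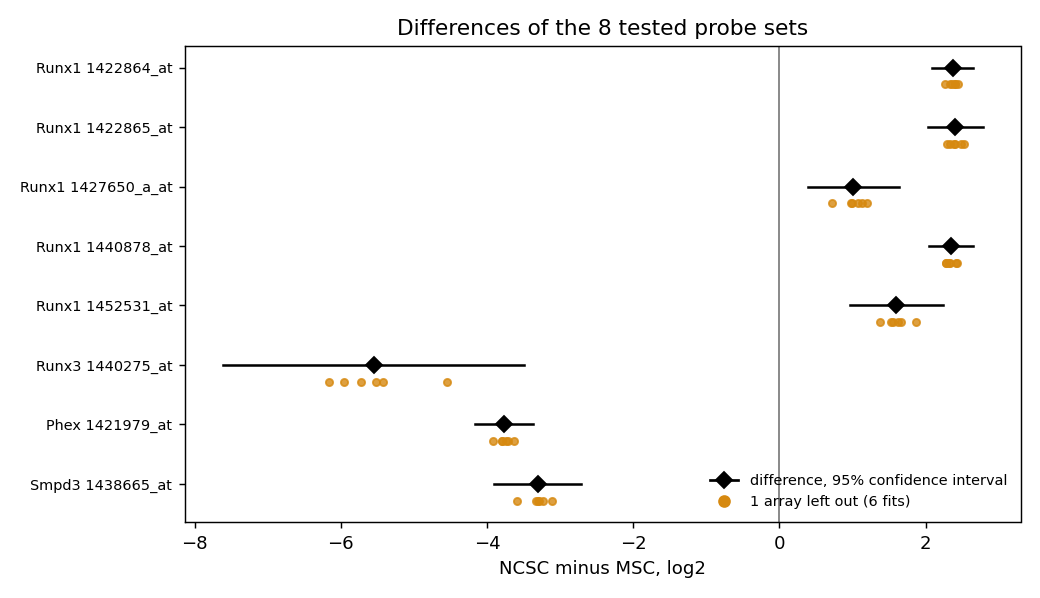
NCSC minus MSC difference on the log2 scale for the 8 tested probe sets. Diamonds and lines are the fitted difference with its 95% confidence interval, and orange points are the 6 fits that leave out 1 array. The 5 Runx1 probe sets lie between 1.01 and 2.41, Runx3, Phex and Smpd3 lie between -5.55 and -3.31, those of Phex and Smpd3 taken against undetected NCSC values, and Runx3 moves most when an array is left out.

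Sp7, Alpl and Ibsp, which follow Runx2 in bone formation, gave no detectable signal. Sp7 and Alpl have 1 probe set each, and undetected probe sets stood beside detected ones for Runx1, Runx3, Phex and Smpd3. The osteocalcin genes Bglap, Bglap2 and Bglap3 had no probe set. Sp7 stood at 2.12 on all 6 arrays. Alpl was at 2.19, 2.12 and 2.12 on the NCSC arrays and at 2.12 on every MSC array. Both Ibsp probe sets lay between 2.12 and 2.13 on all arrays. These values are at or next to the lowest value of the table, so no difference in Sp7, Alpl or Ibsp could be measured in either direction. Ibsp lies in a cluster of acidic phosphoprotein genes on chromosome 5. Its neighbours there, Dspp, Dmp1 and Mepe, were also undetected on all arrays, and Spp1 had no probe set. Sparcl1, the next gene beyond Dspp, was above the limit on 2 of the 6 arrays, with means of 5.62 in NCSC and 2.13 in MSC. Osteocytes, the cells buried in finished bone, are marked by Sost, Dmp1, Mepe and Fgf23, and none of these was detected on any array. The other genes listed with them are also active outside bone. Of these, Pdpn, an early osteocyte marker, had 4.64, 4.57 and 4.53 on the NCSC arrays, against 11.84, 12.43 and 11.97 on the MSC arrays, and fell by 7.50 ± 0.16 on the log2 scale (SE, n = 3 each; limma adjusted p = 7.39e-07). The receptor Fgfr1 fell by 0.99 ± 0.17, the protease Mmp14 differed by -0.065 ± 0.072 and was not called, and Kl was undetected.

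Dlx5, a homeobox factor that is active in both crest and bone cells, had 1 probe set, at 3.79, 3.79 and 3.78 on the NCSC arrays and 3.79, 3.81 and 4.58 on the MSC arrays. MSC 3 was the one array above the limit, and the other 5 arrays were almost equal. Fitted without the filter on low values, Dlx5 differed by -0.27 ± 0.25 (SE, n = 3 each; limma adjusted p = 0.652), with a 95% confidence interval of -0.94 to 0.40. Of the other Dlx genes, Dlx3, Dlx4 and Dlx6 were undetected. Dlx2 had 10.31, 9.95 and 9.96 on the NCSC arrays and 8.14, 6.56 and 7.27 on the MSC arrays, and rose by 2.75 ± 0.39 (limma adjusted p = 0.00161). Dlx1 rose by 1.03 ± 0.27 (limma adjusted p = 0.0187), but lost its call in 4 of the 6 fits that left out 1 array, those without MSC 2 (adjusted p = 0.0579), MSC 3 (0.0536), NCSC 1 (0.0656) and NCSC 2 (0.06), within a range of 0.000329 to 0.0978.

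Phex and Smpd3 were detected in MSC alone. Phex probe set 1421979_at had 2.98, 2.83 and 2.98 on the NCSC arrays, all undetected, against 6.74, 6.38 and 6.97 on the MSC arrays. Phex was at least 6.48-fold lower in NCSC. The fitted difference of -3.76 ± 0.16 (SE, n = 3 each; limma adjusted p = 1.31e-05) was taken against undetected values, and was -2.70 with values under the limit set to it. Phex lies on the X chromosome. Whether the discord of the arrays with the female label, described above, plays a part in its difference was not tested. Its other probe set, 1450445_at, stood at 2.12 on all arrays.

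Smpd3 probe set 1438665_at had 3.22, 3.31 and 3.26 on the NCSC arrays, all undetected, against 6.97, 6.02 and 6.73 on the MSC arrays. Smpd3 was at least 5.94-fold lower in NCSC. Its fitted difference of -3.31 ± 0.24 (SE, n = 3 each; limma adjusted p = 0.000117) likewise rests on undetected values, and was -2.57 with values under the limit set to it. Both probe sets were tested only because MSC passed the limit, so their separation and p-values follow in part from that filter. MSC 2 was the lowest MSC array for Phex and for Smpd3, and without it the differences were -3.92 and -3.58. The other 2 Smpd3 probe sets, 1422779_at and 1450748_at, were undetected, at 2.12 to 2.22. Fewer cells expressing a gene and less RNA in each cell cannot be told apart in these bulk samples.

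Genes with the most similar profile were sought by the root mean square distance between log2 values over the 6 arrays, each profile centred on its mean. For Runx1, detected on all arrays, they were Mb21d2 (distance 0.0907) and Endod1 (0.114). For Runx3 the nearest, Dctd (0.585) and Xdh (0.599), were several times farther away, and NCSC 3 was undetected for Runx3. For Phex they were Slc7a5 (0.096) and Meg3 (0.0996), and for Smpd3 Serpinb1a (0.0699) and Klf4 (0.101). The NCSC values of Phex and Smpd3 were all undetected, so these distances rest in part on background values. Over 6 arrays of 2 cell types each distance is a description.

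Partners and other factors of the bone lineage were mixed. Of 25 tested probe sets of 14 genes, from 19 genes with a probe set, 7 were higher and 11 lower in NCSC, with a median difference of -0.27, against 0.044 over all tested probe sets. Zfp521, a zinc-finger protein that restrains Runx2, was undetected in NCSC, at 2.27, 2.21 and 2.21, against 10.15, 10.28 and 10.21 on the MSC arrays, and was at least 74.3-fold lower. The cartilage regulator Sox9, above the limit on 1 NCSC array, was 7.16-fold lower with values under the limit set to it. Twist1, a repressor of Runx2 function, fell by 1.92 ± 0.26 (SE) on the log2 scale. Its relative Twist2 did not pass the filter. Tle1, a corepressor that binds Runx proteins, had 9.66, 9.80 and 9.66 on the NCSC arrays, against 7.96, 8.51 and 8.30 on the MSC arrays, and rose by 1.45 ± 0.15. The AP-1 subunit Fosl1 fell by 1.16 ± 0.30, but was called without 1 array only where that array was NCSC 3 (adjusted p otherwise 0.0501 to 0.0639, range 0.000144 to 0.0971). Cbfb, the partner that all Runx proteins need to bind DNA firmly, was picked for this role after its values were seen. It had 12.21, 12.34 and 12.15 on the NCSC arrays and 12.45, 12.57 and 12.48 on the MSC arrays, a difference of -0.27 ± 0.088 (limma adjusted p = 0.0385). That call was kept without NCSC 2, and was lost without any other single array (adjusted p = 0.0643 to 0.103, range 0.0201 to 0.103).

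**Figure D3:**
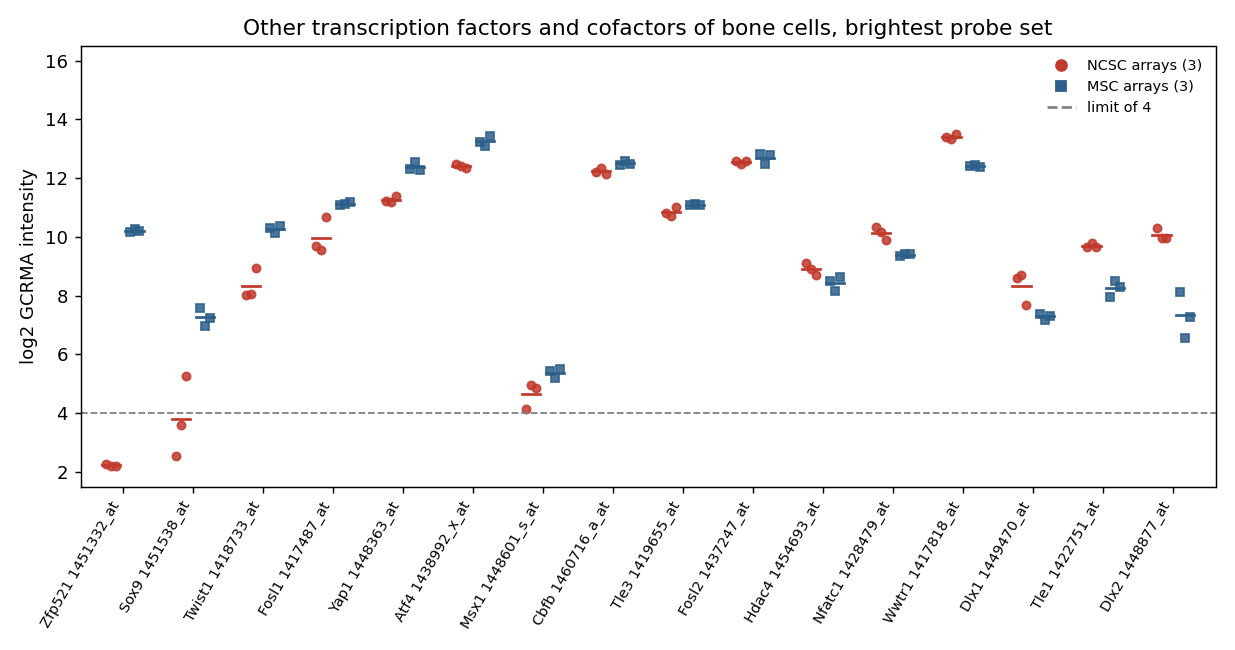
Log2 GCRMA intensity of the brightest tested probe set of 16 other transcription factors and cofactors, ordered by the difference. Red circles are NCSC arrays, blue squares MSC arrays, bars are means and the dashed line is the limit of 4. Zfp521 is at the bottom in NCSC and near 10.2 in MSC, and Dlx2 is at the other end.

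Bone matrix genes did not move together. Of 20 tested probe sets of 9 genes, from 13 genes with a probe set, 5 were higher and 10 lower in NCSC. The shares over all tested probe sets were 32% higher and 26.9% lower. The median difference of the 20 was -0.44. Both probe sets of osteoglycin (Ogn) were tested only through their MSC values, so they could only come out lower. Osteoglycin (Ogn) was at least 138-fold lower, and the proteoglycan Bgn fell by 6.68 ± 0.28 (SE) on the log2 scale. The fibril-associated collagen Col12a1 fell by 1.35 ± 0.18. The main bone collagen chain Col1a1 fell by 0.64 ± 0.13 in its brightest probe set, while its other one differed by -0.10 ± 0.20 and was not called. Periostin (Postn), a matrix protein of the bone surface, rose by 2.62 ± 0.23.

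Genes that handle mineral or process the matrix had 28 tested probe sets of 14 genes, from 16 genes with a probe set, of which 11 were higher and 11 lower, with a median difference of 0.12. Mgp, an inhibitor of calcification, was undetected in NCSC, at 3.18, 3.88 and 2.68, against 14.54, 14.79 and 14.50 on the MSC arrays, and was at least 1563-fold lower. The collagen receptor Ddr2 was at least 275-fold lower, and the collagen crosslinking enzyme Lox fell by 5.07 ± 0.13 (SE) on the log2 scale. The vitamin D receptor Vdr fell by 2.12 ± 0.45 in its brightest probe set. That call was lost without the filter on low values (adjusted p = 0.0591, range 0.000892 to 0.0591). The other Vdr probe set differed by -3.07 ± 0.28 (limma adjusted p = 0.000266) and was called in each of its 17 fits. Bmp1, which trims procollagen, rose by 2.05 ± 0.096.

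**Figure D4:**
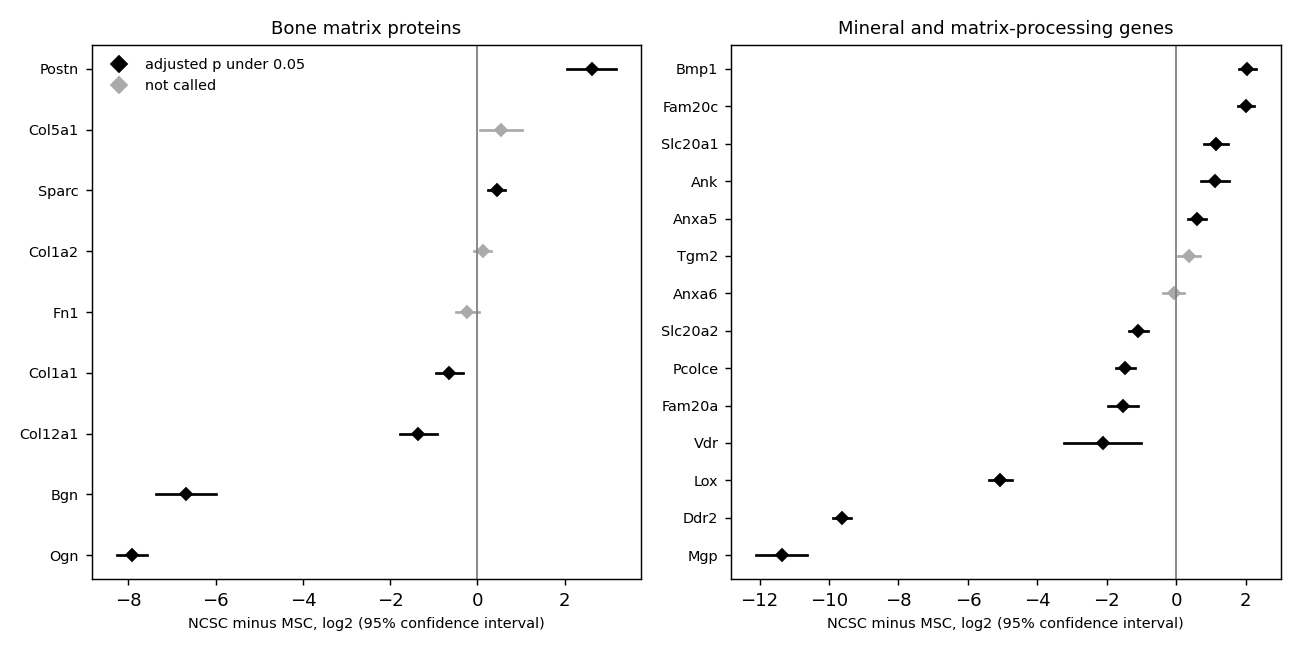
NCSC minus MSC difference on the log2 scale, with its 95% confidence interval, for the brightest tested probe set of bone matrix genes on the left and of mineral and matrix-processing genes on the right. Black marks were called at an adjusted p under 0.05 and grey marks were not. Ogn and Bgn on the left and Mgp, Ddr2 and Lox on the right fell by 5 or more, while Postn and Bmp1 rose by over 2.

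Runx1 and Runx3 are also expressed by blood cells, so markers of these cells were read beside them. Of 13 macrophage and blood markers with a probe set 8 were undetected on all arrays, among them Ptprc, the antigen common to white blood cells, and Spi1, both at 2.12 throughout. The summed intensity of the list, on the log2 scale, was 9.71 to 9.91 on the NCSC arrays and 7.60 to 7.77 on the MSC arrays. The lysosomal protein Cd68 was at least 27.9-fold higher in NCSC and lysozyme Lyz2 rose by 1.97 ± 0.18 (SE), while Fcer1g rose by 0.79 ± 0.23 and lost its call without NCSC 1 (adjusted p = 0.0803) and without NCSC 2 (0.0553), within a range of 0.0118 to 0.118. Csf1r was tested and was not called in any fit. Cd14, which did not pass the filter, went the other way. It was at 2.19, 2.16 and 2.19 on the NCSC arrays and at 4.63, 3.96 and 5.15 on the MSC arrays. The part of blood cells in the Runx differences was not tested. All 7 chondrocyte markers were undetected on all arrays.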

How the data were processed

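Total RNA of 3 NCSC and 3 MSC samples was measured on Affymetrix arrays, and the authors deposited probe set intensities made with GCRMA (version not stated), per the submitters' processing notes. Their linear scale was read from the values, and each intensity was taken to log2 with no further normalization. Probe sets were named from the platform annotation: 34945 have 1 gene, 932 several and 9160 none here, and 64 are controls. GRCm38.p6 RefSeq tables gave chromosomes and promoters.

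A probe set was tested when above 4 on at least 3 arrays (21004 probe sets), by a two-sided fit of NCSC minus MSC without covariates (limma 3.58.1, R 4.3.3, lmFit followed by eBayes). Folds are lower bounds, with values under 4 set to 4, where any array of the dimmer cell type did not exceed 4. They bound the undetected values only and do not allow for the spread of the arrays. The fit was tested on simulated data. The number of arrays limits the precision.

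Named genes are all probe sets of the 10 genes, up to 5 called genes per related list by the size of the difference in the brightest probe set, relatives of these that were not tested, and the 2 nearest profiles. Members and lists were chosen with earlier results of these data known. Replicate numbers did not pair the samples: correlations of same-numbered deviations were -0.0892, 0.052 and 0.0391.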

Additional observations from a re-analysis of the deposited data

How the results depend on the processing

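The 8 member differences were refitted under up to 17 alternatives, 129 refits in all. None changed direction, and 127 stayed on the same side of the threshold, the exceptions being Runx1 1427650_a_at without MSC 1 (adjusted p = 0.053) and without the filter on low values (adjusted p = 0.0854). Leaving out each array in turn gave 10277 to 13066 called probe sets, 4 to 5 member probe sets higher and 3 lower each time. With 1 probe set a gene 6731 were called, 1 member probe set of them higher, because 4 Runx1 probe sets were not fitted. With a filter of all 6 arrays above the limit, 0 member probe sets were called lower, because Runx3, Phex and Smpd3 were not fitted. With the replicate number as a block 11293 probe sets were called, against 12362 without it, and no member call changed. Runx3 ranged from -6.16 without NCSC 1 to -4.55 without NCSC 3. Its size moved most without NCSC 3, but its call was kept in each refit. Of the 10 member probe sets that were not tested, 9 were undetected on all arrays, and Dlx5 exceeded the limit on MSC 3 only.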

Other observations

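Smpd3 belongs to a set of sphingolipid enzymes that were otherwise detected. Of 16 tested probe sets of 9 such genes 4 were higher and 2 lower in NCSC, with a median difference of -0.10, against 0.044 over all tested probe sets. The ceramide kinase Cerk had 10.66, 10.82 and 9.83 on the NCSC arrays and 6.18, 5.98 and 6.29 on the MSC arrays, and rose by 4.29 ± 0.27 (SE, limma adjusted p = 6.36e-05). The sphingosine kinase Sphk1 rose by 2.11 ± 0.10, and the sphingomyelinases Smpd1 and Smpd2 by 0.73 ± 0.12 and 0.43 ± 0.086. The sphingomyelin synthase Sgms2 fell by 3.09 ± 0.21 on the log2 scale.

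Genes through which bone-forming cells steer osteoclasts had 9 tested probe sets of 4 genes, 0 higher and 7 lower in NCSC by limma, with a median difference of -2.16. All 7 belonged to Csf1 and Sema3a, so that 2 genes were lower and 2 were not called. Among all tested probe sets 26.9% were lower. At an unadjusted p under 0.05 there was 1 higher, that of the ephrin receptor Ephb4 (0.32 ± 0.12). The guidance factor Sema3a fell by 4.86 ± 0.16 and the macrophage growth factor Csf1 by 1.17 ± 0.081, each in its brightest probe set, while the decoy receptor Tnfrsf11b differed by 0.044 ± 0.20 and Tnfsf11 was undetected. The integrins and Cd44 that bind osteopontin had 10 probe sets higher and 9 lower of 23 tested, with a median of 0.16. Itgb3 was at least 49-fold higher and Itga9 at least 6.28-fold lower in NCSC, and Itga4 rose by 3.82 ± 0.45. Of 4 adipocyte markers tested, Fabp4 and Pparg were at least 752-fold and 25.4-fold lower in NCSC, and Lpl rose by 2.84 ± 0.23. Cebpa was not called in any fit, and Adipoq was undetected on all arrays.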
